A study of Mus musculus with 2 samples.

Results

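Cadherins and non-clustered protocadherins are cell-surface adhesion molecules, and their transcripts were followed here across the cell types of the embryonic corticoseptal boundary. Members were all genes whose symbol is Cdh or Pcdh followed by a number, with or without a final x. The count tables held 35 such genes among 32285, and 32 of them reached 50 UMIs (unique molecular identifiers, each standing for 1 captured transcript) over the cells of both libraries. Cdh16, Cdh17 and Cdh26 did not, with 2, 18 and 12 UMIs, and get no further statement of their own beyond this count. Tissue came from mouse embryos at E16.5, dissected from the midline region where cortex meets septum, dissociated and run on the 10x Genomics 3′ platform. The control library was labelled WT and the other Tcf4f/f;Emx1Cre, a conditional knockout abbreviated Tcf4cKO, in which both copies of Tcf4 are floxed and Cre is driven by Emx1, a gene of the dorsal telencephalon. The labels do not say whether the WT embryos carried floxed alleles or Cre, nor how many embryos were pooled. Each genotype was 1 library, so no difference between genotypes had a replicate check, and all intervals are 95% intervals for counting error only.

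Classical cadherins bind the same or a related cadherin on the neighbouring cell in the presence of calcium, and their cytoplasmic tails hold catenins that link them to actin. Type I members bind strongly, and type II members sort neurons of different nuclei and layers by selective binding. Delta protocadherins adhere more weakly, and several of them recruit the WAVE actin regulator to control axon growth and dendrite shape. In the developing forebrain both families are known for region-restricted expression in progenitors and neurons.

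The WT library gave 8637 cells with a median of 9660 UMIs, and the Tcf4cKO library 10124 cells with a median of 8148. Members made up 76539 UMIs (0.0825%) of the WT cells and 83486 (0.0901%) of the Tcf4cKO cells. Tcf4, the targeted transcription factor, stood at 1501 CPM (UMIs scaled to a common total) over all WT cells and at 1139 CPM over all Tcf4cKO cells. The 3′ tags may lie outside the deleted exons, which the labels do not name, so this level does not check the deletion. The libraries shared 21 cell barcodes. Free RNA, read from droplets with 10 to 100 UMIs, made up an estimated 2.25% of the UMIs of a WT neuron and 1.20% of a Tcf4cKO neuron.

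Cells of both libraries were clustered together with all members left out of the genes used, so that the clusters were not defined by them. Markers named 31 of the 39 clusters. Astroglia-like clusters (1351 WT and 1183 Tcf4cKO cells) held Slc1a3, Fabp7 and Hes5, and the summed level of the 11 astroglia markers was 14246 and 12640 CPM there against 654 and 753 CPM in glutamatergic neurons. Glutamatergic neuron-like clusters (1907 and 2372 cells) held Neurod2, Neurod6 and Tbr1, and GABAergic neuron-like clusters (1836 and 2166 cells) held Gad1, Gad2 and Dlx genes. Smaller classes were cycling progenitors (1122 and 1243 cells), intermediate progenitors (632 and 806), Cajal-Retzius-like cells (186 and 163), microglia (53 and 58), oligodendrocyte progenitors (38 and 40) and ependymal or choroid plexus cells (35 and 24). Of the Cajal-Retzius-like clusters, cluster 30 was led by Ndnf, Reln and Trp73, whereas the leading genes of cluster 26 were Gng8, C1ql1 and Onecut2. Trp73 and Ebf3 passed as markers in cluster 30 but not in cluster 26. The septal gene Six3 stood at 18.4 CPM in cluster 30 and 467 CPM in cluster 26 over both libraries. Values of this class join both clusters, which may be unlike neurons. The remaining 1477 WT and 2069 Tcf4cKO cells stayed unnamed, among them cluster 33, led by the endothelial and mural genes Cldn5 and Rgs5, and cluster 38, led by the pigment-cell genes Mlana and Pmel. Transcripts of the erythroid list (haemoglobin genes and Alas2), which mark red blood cells, summed to 1305 and 1440 CPM in glutamatergic neurons, to 772 and 3554 CPM in astroglia and to 80041 and 91688 CPM in microglia, and their part in the results below was not tested.

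Among the 7 classes with at least 50 cells in both libraries, 23 of 32 members had the same leading class in WT and Tcf4cKO. In 9 of these the leading class also stood apart from the next by its interval in both libraries. Cajal-Retzius-like cells led 8 members, GABAergic neurons 6, astroglia 4, glutamatergic neurons 2, cycling progenitors 2, microglia 1 and intermediate progenitors none. Cdh3, counted here under astroglia, had 0 Tcf4cKO UMIs in all 7 classes, so its Tcf4cKO lead was only a tie at 0. Cdh1, counted under Cajal-Retzius-like cells, had 1 UMI there in each library. The same counts over all genes were not made. Below, a class that leads does so among these 7, and the fewer oligodendrocyte progenitors and ependymal or choroid plexus cells are given apart. Astroglia held a mean of 1.96 different members per cell in WT and 2.02 in Tcf4cKO when cells were thinned to 3000 UMIs, and 4.16 and 3.90 without thinning. Glutamatergic neurons held 2.13 and 2.45 thinned, and 4.73 and 4.43 unthinned.

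**Figure D1:**
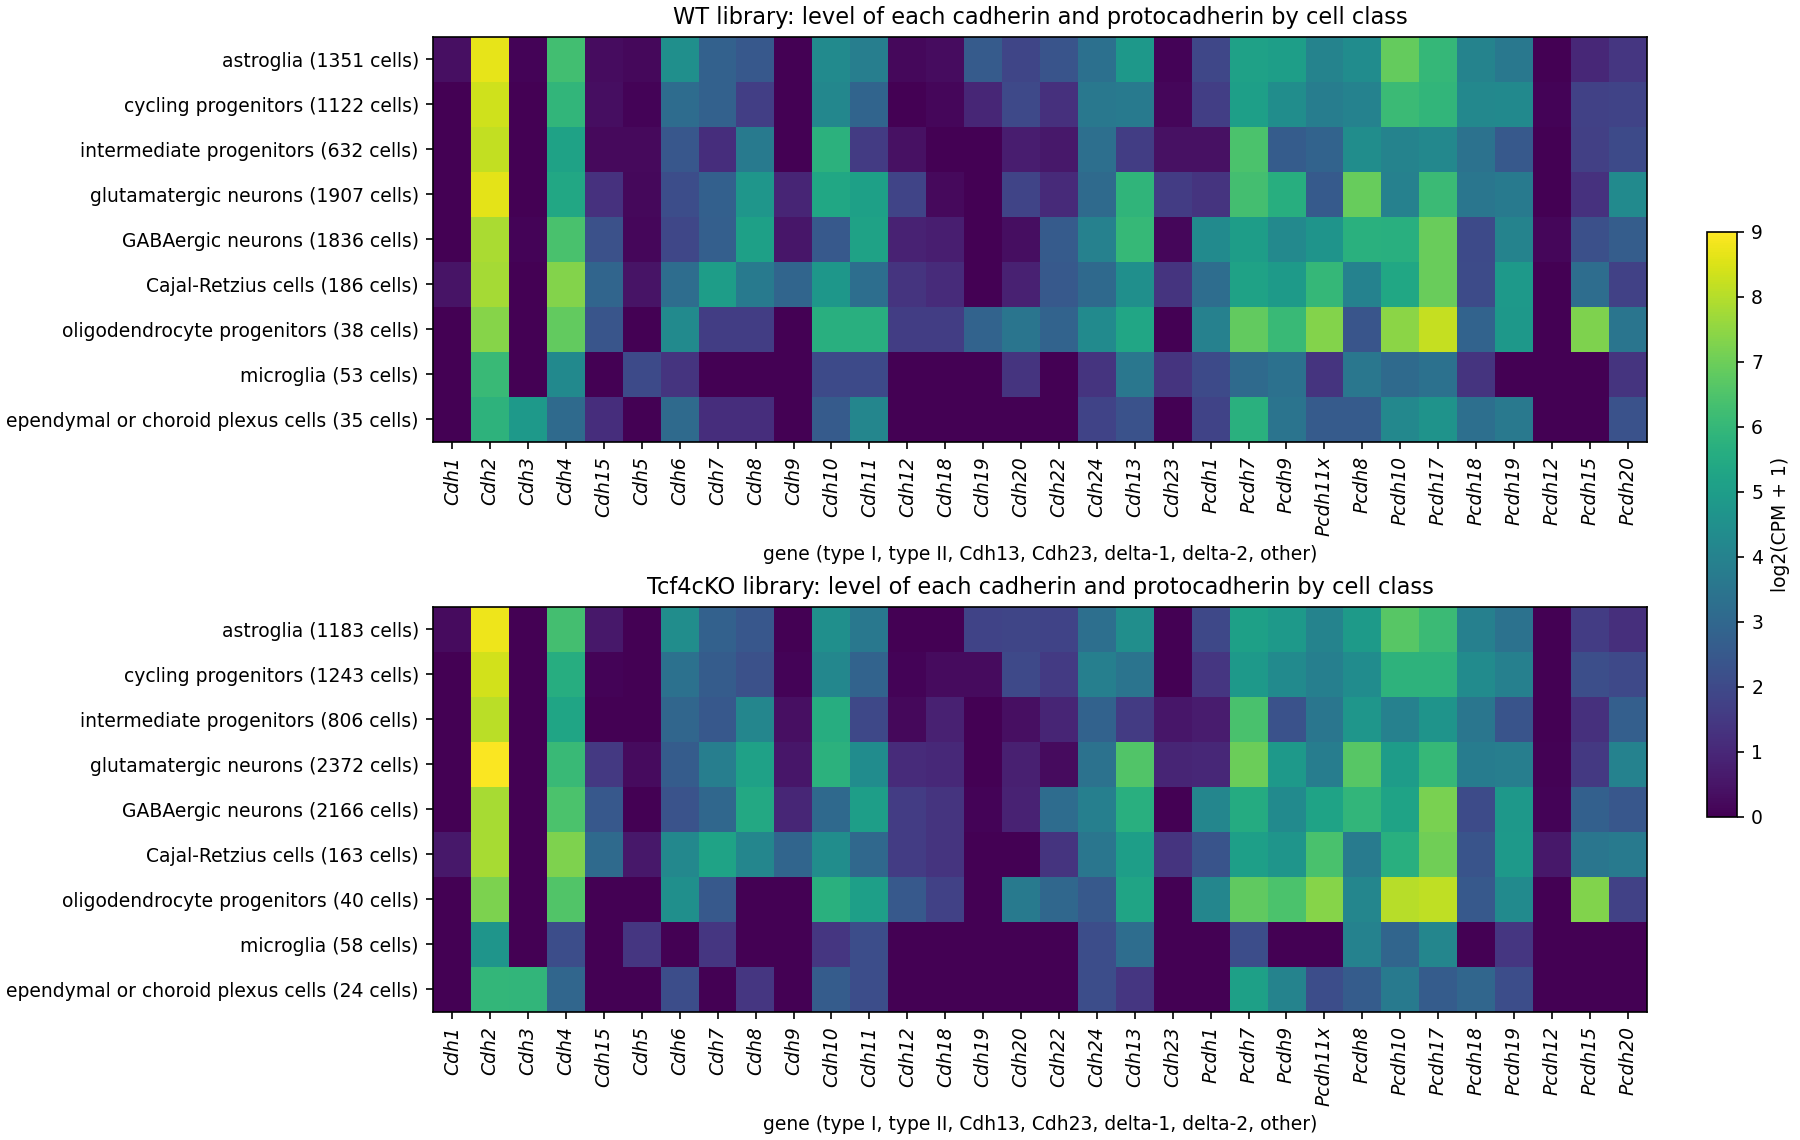
Level of each of the 32 members (columns, grouped by family) in each cell class (rows, with the number of cells) for the WT library (upper panel) and the Tcf4cKO library (lower panel), as log2(CPM + 1) by colour. Cdh2 is bright in every neural class, Pcdh15 stands out in oligodendrocyte progenitors (153 and 155 CPM), and the 2 panels share most of their pattern.

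Cdh2 (N-cadherin), the type I cadherin of the neuroepithelium, was found in every class. In WT it was highest in astroglia at 403 CPM (393 to 414) and in glutamatergic neurons at 397 CPM (389 to 406), which overlapped. In Tcf4cKO the glutamatergic neurons stood higher, at 488 CPM (478 to 498), than astroglia at 438 CPM (426 to 451). Oligodendrocyte progenitors (163 and 150 CPM) and microglia (67.9 and 25.0 CPM) were below all the neuronal and progenitor classes.

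Cdh4 (R-cadherin), another type I cadherin of the brain, was led by Cajal-Retzius-like cells, at 158 CPM (143 to 175) for WT, 154 CPM (137 to 172) for Tcf4cKO. That level came from cluster 30, the Ndnf and Trp73 cluster, at 316 and 324 CPM, while cluster 26 held 55.1 and 52.7 CPM. The intervals of the 2 clusters that share this class name did not overlap. Among the 7 classes GABAergic neurons followed at 84.6 and 86.3 CPM, oligodendrocyte progenitors held 114 and 93.9 CPM, and intermediate progenitors were low at 35.5 and 38.2 CPM.

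The other type I members marked rare cells. Cdh1 (E-cadherin), the epithelial cadherin, had 109 UMIs in all, of which 94 were in the 43 WT cells of cluster 38, a level of 155 CPM (125 to 190). That cluster had 4 cells in Tcf4cKO, with 7 UMIs. Cdh3 (P-cadherin), a cadherin of epithelia and pigment cells, had 22 WT and 35 Tcf4cKO UMIs of its 73 in the ependymal or choroid plexus cells, at 27.7 CPM (17.3 to 41.9) and 59.3 CPM (41.3 to 82.4). These 35 and 24 cells are too few for a class comparison. Cdh15 (M-cadherin), best known from muscle, reached 6.66 and 7.65 CPM in Cajal-Retzius-like cells and 3.74 and 4.58 CPM in GABAergic neurons.

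Among type II cadherins, Cdh5 (VE-cadherin), the adhesion molecule of endothelial junctions, served as a check of the labels of rare cells. Cluster 33, whose leading genes are endothelial and mural, held 488 of its 501 WT UMIs and 418 of its 425 Tcf4cKO UMIs, at 338 CPM in each library. Microglia came first among the named classes with only 2 and 1 UMIs, so that lead rests on almost no transcripts.

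Cdh6, a type II cadherin of early forebrain regions, was led by astroglia, at 21.3 CPM (18.9 to 23.9) for WT, 20.5 CPM (17.8 to 23.4) for Tcf4cKO, where the interval overlapped that of Cajal-Retzius-like cells (17.3 CPM). Oligodendrocyte progenitors held 18.6 and 21.1 CPM from 9 UMIs in each library. Within astroglia it peaked in cluster 21, which was led by Fgf17 and Fgf8, at 42.6 CPM (35.5 to 50.7) and 65.3 CPM (50.7 to 82.7), and was at 5.80 and 12.7 CPM in cluster 10, led by Hopx. Cdh19, known from glial and neural crest lineages, shared this place: cluster 21 held 58 of its 66 WT astroglial UMIs and 20 of 26 in Tcf4cKO, at 19.5 and 19.2 CPM. Both genes were thus found mainly, or at their highest cluster level, in the same astroglial cluster of each library. Cluster 21 also carried the septal gene Six3 at 505 CPM and Nkx2-1 at 439 CPM over both libraries.

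Cdh8, which sorts neurons by selective adhesion, was led by GABAergic neurons at 33.4 CPM (30.6 to 36.4) and 42.3 CPM (39.2 to 45.5), followed by glutamatergic neurons at 25.7 and 34.7 CPM. Its highest cluster level was in GABAergic cluster 28, led by Nwd2 and Gbx1 with Lhx6 among the leading genes, at 285 CPM (31 WT cells) and 239 CPM (158 Tcf4cKO cells). Cluster 8, led by Lhx8 and Lhx6, held 95.8 and 57.7 CPM. Both are clusters with Lhx6, a gene of the medial ganglionic eminence. Cdh8 overlaps the gene Gm15680 on the same strand, so its reads may be shared.

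Cdh10, a type II cadherin, was found at the step from progenitor to glutamatergic neuron. In WT, intermediate progenitors led with 53.8 CPM (48.2 to 59.8) over glutamatergic neurons with 39.7 CPM (37.1 to 42.4), and in Tcf4cKO these were 47.9 and 54.1 CPM. By cluster, the levels were highest in glutamatergic cluster 1 (Unc5d, Rnd2 and Neurod1) at 122 and 130 CPM, and intermediate progenitor cluster 4 (Eomes and Neurod4) held 87.7 and 73.6 CPM. GABAergic neurons held 4.75 and 7.52 CPM, although unnamed cluster 23 (Trhde, Calb2 and Pnoc), nearest to them, reached 77.0 and 72.3 CPM. Among the uncompared classes, oligodendrocyte progenitors held 49.66 and 51.65 CPM of Cdh10, from 24 and 22 UMIs.

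Cdh11 was shared by GABAergic neurons, with 35.8 and 32.1 CPM, and glutamatergic neurons, with 34.0 and 19.9 CPM. Its cluster values were far from even. Cluster 33 held 145 and 79.2 CPM, GABAergic cluster 29, led by Sst and Npy, held 121 and 76.2 CPM, and glutamatergic cluster 14, led by Crym and Rgs4, held 93.3 and 44.7 CPM. Glutamatergic cluster 1 was low at 5.98 and 6.37 CPM, and intermediate progenitors held 1.93 and 2.88 CPM. Among the uncompared classes, oligodendrocyte progenitors held 49.7 and 32.9 CPM of Cdh11, from 24 and 14 UMIs.

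The remaining type II members were sparse or local. Cdh7 was led by Cajal-Retzius-like cells at 31.0 and 36.2 CPM, mostly from cluster 30 at 54.5 and 76.9 CPM. Cdh9 had 100 UMIs in all and was at 6.66 and 6.63 CPM in the same class, this time from cluster 26 at 10.4 and 9.73 CPM. Cdh4 and Cdh7 were thus higher in cluster 30, while Cdh9 had 16 and 12 UMIs in cluster 26 and 1 in each library in cluster 30. Cdh22 was led by GABAergic neurons (5.00 and 7.99 CPM), had 3 UMIs in the oligodendrocyte progenitors of each library (6.21 and 7.04 CPM), and reached 20.5 and 21.4 CPM in unnamed cluster 17, with Gsx1 and Gsx2 among its leading genes. Cdh24 was spread over classes, from 7.72 to 14.4 CPM in glutamatergic and GABAergic neurons of WT. Cdh20 was led by cycling progenitors at 2.98 and 2.93 CPM, close to astroglia at 2.64 and 2.69 CPM, and oligodendrocyte progenitors held 10.3 and 11.7 CPM from 5 UMIs in each library. Cdh12 (158 UMIs, overlapping Gm49685 on the same strand) and Cdh18 (102 UMIs) stayed at or below 2.57 CPM in each of the 7 classes, and their leading class changed between libraries.

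Cdh13 (T-cadherin) lacks a cytoplasmic tail and is held in the membrane by a lipid anchor. GABAergic neurons led in WT with 64.1 CPM (60.2 to 68.2) and glutamatergic neurons in Tcf4cKO with 93.4 CPM (89.2 to 97.7). Its highest cluster level in both libraries was in cluster 14 (Crym, Rgs4 and Mef2c), at 277 CPM (95 WT cells) and 235 CPM (523 Tcf4cKO cells). Cluster 1, where Cdh10 was highest, held 2.56 and 4.87 CPM of Cdh13, and intermediate progenitors 2.09 and 1.97 CPM. Cdh23, the hair-cell tip-link cadherin, had 93 UMIs, of which 45 and 18 were in glutamatergic neurons.

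Pcdh7, a delta-1 protocadherin, was highest in some of the same clusters as Cdh10. Intermediate progenitors held 87.3 CPM (80.1 to 94.9) and 83.7 CPM (76.9 to 91.0), and glutamatergic neurons 77.8 and 125 CPM. Among the uncompared classes, oligodendrocyte progenitors held 114 and 110 CPM. The leading clusters were glutamatergic cluster 1 at 202 and 250 CPM, cluster 15 at 173 and 236 CPM and intermediate progenitor cluster 4 at 150 and 135 CPM. Cluster 14 was low in WT at 18.5 CPM, opposite to Cdh13.

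Pcdh9 was led by glutamatergic neurons in WT at 48.4 CPM (45.5 to 51.4), and by astroglia in Tcf4cKO at 28.3 CPM, which overlapped glutamatergic neurons at 28.1 CPM. Oligodendrocyte progenitors held more of Pcdh9, at 68.3 and 86.9 CPM. Pcdh11x, an X-linked delta-1 member, was led by Cajal-Retzius-like cells at 63.1 and 85.2 CPM, and among the uncompared classes oligodendrocyte progenitors held 161 and 164 CPM. Pcdh1, another delta-1 member, was led by GABAergic neurons at 19 CPM (16.9 to 21.3) and 16.7 CPM (14.8 to 18.7), with 0.321 and 0.606 CPM in intermediate progenitors. Cluster 33 exceeded them at 56.1 and 56.6 CPM.

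Pcdh10 (OL-protocadherin), a delta-2 member that binds the WAVE complex, was led by astroglia in both libraries, beyond the interval of the next class. They held 115 CPM (110 to 121) for WT, 99.8 CPM (93.8 to 106) for Tcf4cKO, cycling progenitors 69.3 and 55.4 CPM, and intermediate progenitors and WT glutamatergic neurons 14.5 to 15.2 CPM. Within astroglia, cluster 16 (Creg2, Mt3 and Ptx3) stood at 167 CPM in each library and cluster 2 (Ogn, Aldh1l1 and Foxj1) at 152 and 123 CPM, above cluster 21 at 45.7 and 67.2 CPM. Oligodendrocyte progenitors were higher still, at 174 and 261 CPM.

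Pcdh10 was called higher and Pcdh9 and Cdh20 lower in the glutamatergic neurons of the Tcf4cKO library (below), and for these 3, chosen after their values were seen, the 250 bases ahead of their RefSeq starts are shown (GRCm38.p6), each 5′ to 3′ on the strand of the gene. Pcdh10 is read from chr3:45378148-45378397 on the plus strand, Pcdh9 from chr14:93890680-93890929 on the minus strand and Cdh20 from chr1:104768270-104768519 on the plus strand. Capitals mark CANNTG, the E-box letters that bHLH proteins such as TCF4 bind, which read the same on both strands.
Pcdh10: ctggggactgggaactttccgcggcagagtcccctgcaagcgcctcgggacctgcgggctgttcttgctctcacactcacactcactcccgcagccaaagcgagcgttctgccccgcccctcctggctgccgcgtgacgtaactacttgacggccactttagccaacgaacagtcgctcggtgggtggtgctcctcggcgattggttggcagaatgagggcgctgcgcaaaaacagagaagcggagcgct
Pcdh9: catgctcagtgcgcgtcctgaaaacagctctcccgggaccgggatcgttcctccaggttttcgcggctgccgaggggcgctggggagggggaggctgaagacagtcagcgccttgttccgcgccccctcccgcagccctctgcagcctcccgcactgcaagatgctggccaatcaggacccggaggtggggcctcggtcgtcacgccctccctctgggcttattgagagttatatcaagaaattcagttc
Cdh20: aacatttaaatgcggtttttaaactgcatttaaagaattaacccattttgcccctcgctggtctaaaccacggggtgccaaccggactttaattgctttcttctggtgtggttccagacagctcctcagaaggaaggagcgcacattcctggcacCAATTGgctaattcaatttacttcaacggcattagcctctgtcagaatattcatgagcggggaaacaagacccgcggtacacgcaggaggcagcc
The Cdh20 window holds 1 match and the other two hold none. Of the 25 starts listed for 22 members, 52% had a CANNTG match in this window, against 66.2% of all 32851 starts of the table. The median share of G and C bases was 58.4% for the members and 52.4% for all starts. Its part in the share of matches was not tested. The Pcdh10 window overlaps an exon of the antisense transcript gene 2610316D01Rik. A match is only a match of letters in 250 bases, and its absence says nothing of binding elsewhere.

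Of the other delta-2 members, Pcdh8, an activity-induced protein of synapses, was led by glutamatergic neurons at 120 CPM (116 to 125) and 101 CPM (96.7 to 106), with GABAergic neurons at 51.6 and 60.1 CPM. Pcdh17, which is known from axon bundling, was level between GABAergic neurons (122 and 146 CPM) and Cajal-Retzius-like cells (121 and 130 CPM), and oligodendrocyte progenitors held 296 and 282 CPM. Pcdh18 was led by cycling progenitors at 17.2 and 19.2 CPM, close to astroglia in WT, but cluster 33 was far above at 105 CPM (89.2 to 123) and 111 CPM (93.0 to 131). Pcdh19, the X-linked member tied to a human epilepsy, was at 27.4 and 27.5 CPM in Cajal-Retzius-like cells, and GABAergic cluster 29 (Sst and Npy) reached 187 CPM (153 to 226) and 174 CPM (143 to 209).

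Pcdh12 (VE-cadherin-2), an endothelial protocadherin, had 60 of its 63 WT UMIs and 92 of its 95 Tcf4cKO UMIs in cluster 33, at 41.6 and 74.4 CPM. Pcdh15, the partner of Cdh23 at the hair-cell tip link, was a gene of oligodendrocyte progenitors, at 153 CPM (120 to 192) and 155 CPM (120 to 197) against at most 10.7 CPM in the 7 classes. It overlaps Gm15397 on the same strand. Pcdh20 was led by glutamatergic neurons at 18.7 and 15.0 CPM, with 214 of its 407 WT glutamatergic UMIs in cluster 24 (39.8 CPM).

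Likeness of members was described over the 38 clusters with at least 50 cells, as the Spearman correlation of log2(CPM + 5) for the 22 members with at least 500 UMIs (231 pairs). The most alike pairs were Cdh8 and Pcdh8 at 0.71, Cdh11 and Cdh13 at 0.68, and Cdh22 and Pcdh1 at 0.67. The most unlike were Cdh13 and Pcdh18 at -0.50, Cdh2 and Pcdh1 at -0.45, and Cdh10 and Pcdh1 at -0.42. The points share 2 libraries and their depth, so these values are descriptions of these clusters.

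The comparison of genotypes asked which members stood at another level in the cells of the Tcf4cKO library. Ratios are Tcf4cKO over WT. A gene was counted as measured with 50 UMIs in a class over both libraries, and as called when its ratio passed 1.5-fold either way and its interval left out 1. This call describes 2 libraries, not 2 genotypes, since embryo-to-embryo spread is unknown.

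Glutamatergic neurons had the most calls. Of 24 measured members, 12 were called, 7 higher and 5 lower, where 8.77% of all 12072 measured genes were called (4.04% higher and 4.73% lower). The median log2 ratio (with 5 CPM added) was 0.16 over the members and -0.01 over all genes, and the median size of the change without its sign was 0.30 against 0.10. These medians describe the members in these 2 libraries only. The 5 CPM added make the changes of genes at low level smaller, and no background of matched level was made. The cells behind the class were, however, different in the 2 libraries: clusters 6 (712 WT and 4 Tcf4cKO cells) and 24 (371 and 3) were of WT, cluster 9 (5 and 674) was of Tcf4cKO, cluster 14 had 95 and 523 cells, and clusters 1 (529 and 801) and 15 (195 and 367) were shared. Unnamed cluster 5 (30 WT and 688 Tcf4cKO cells) also held Neurod2, Neurod6 and Tbr1 and was nearest to this class. Its cells are not in the class values given here. With only the clusters that had 50 cells in both libraries pooled, a choice made after seeing the data, 3 of 18 measured members were called, all higher (Cdh7, Cdh13 and Pcdh11x). The share of all genes called in this pooling is not given here. In that pooling Cdh4 (log2 ratio -0.20), Cdh6 (-0.19) and Cdh11 (0.0032) had the opposite sign to the class values below, and Cdh13 had it (-0.16) when shared clusters were weighted equally. The pooling still joined clusters 1, 14 and 15 in unlike shares of the 2 libraries. Cdh7 and Cdh13 were called in none of these clusters alone, and the part of the shares in their pooled ratios was not tested. How much of each class ratio came from the mix of clusters and how much from levels within them cannot be told apart for the clusters found in 1 library.

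Of the 7 higher members, 3 were more than 2-fold higher. Pcdh11x went from 4.87 CPM (WT) to 12.9 CPM (Tcf4cKO), a ratio of 2.66 (2.11 to 3.36). Cdh7 stood at 5.83 and 13.6 CPM, a ratio of 2.33 (1.88 to 2.90). Pcdh10, the astroglial delta-2 member, stood at 14.5 and 30.6 CPM, a ratio of 2.11 (1.84 to 2.43). The other four were higher by a smaller factor. Cdh4 had 41.2 and 68.3 CPM (1.66, 1.53 to 1.81), and Cdh13 had 57.8 and 93.4 CPM (1.62, 1.5 to 1.74). Pcdh7 had 77.8 and 125 CPM (1.61, 1.51 to 1.71), and Cdh6 had 3.35 and 5.09 CPM (1.52, 1.11 to 2.08). The levels of Cdh6, Pcdh10 and Pcdh11x in this class were below those in free RNA in both libraries (42.8 and 39.1 CPM for Pcdh10, 22.2 and 22.0 CPM for Pcdh11x). Markers of other classes also differed in these neurons. The summed astroglia list went from 654 to 753 CPM, with 6 of 11 markers higher and 5 lower. Slc1a3 stood at 36.1 and 94.8 CPM, and Ptprz1, 1 of the lower ones, at 298 and 273 CPM. The intermediate progenitor list went from 684 to 754 CPM, with 5 of 10 markers higher, 4 lower and Neurog1 at 0 in both libraries. Among the higher were Eomes at 74.2 and 140 CPM and Neurog2 at 50.3 and 90.5 CPM. Among the lower were Sstr2 at 85.9 and 57.6 CPM and Gadd45g at 60.8 and 43.1 CPM. Cajal-Retzius markers went from 223 to 127 CPM, with 2 of 7 higher. That fall lay in Calb2, at 182 and 81.8 CPM, while the 2 higher were Reln (33.3 and 35.6 CPM) and Cacna2d2 (3.81 and 7.16 CPM). Calb2 was also the first leading gene of unnamed cluster 5 (30 WT and 688 Tcf4cKO cells), which is left out of this class. The fall therefore holds only for the clusters named glutamatergic. The part of cells or transcripts of other classes in the member ratios was not tested.

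The 5 lower members were led by 2 with deep counts. Pcdh9 stood at 48.4 and 28.1 CPM, a ratio of 0.581 (0.524 to 0.644), and Cdh11 at 34.0 and 19.9 CPM, a ratio of 0.587 (0.518 to 0.663). The other three were near the limit of detection. Cdh20 had 56 and 15 UMIs (0.288, 0.151 to 0.516), Cdh23 had 45 and 18 UMIs (0.430, 0.234 to 0.758), and Cdh12 had 56 and 23 UMIs (0.441, 0.259 to 0.729). The Cdh20 and Cdh12 transcripts of WT lay mostly in the WT clusters, with 42 UMIs of Cdh20 in cluster 24 and 32 of Cdh12 in cluster 6. The other 12 measured members were not called: Cdh2, Cdh8, Cdh10, Cdh15, Cdh24, Pcdh15, Pcdh18 and Pcdh19 had ratios of 1.13 to 1.36, and Pcdh1, Pcdh8, Pcdh17 and Pcdh20 of 0.632 to 0.920.

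**Figure D2:**
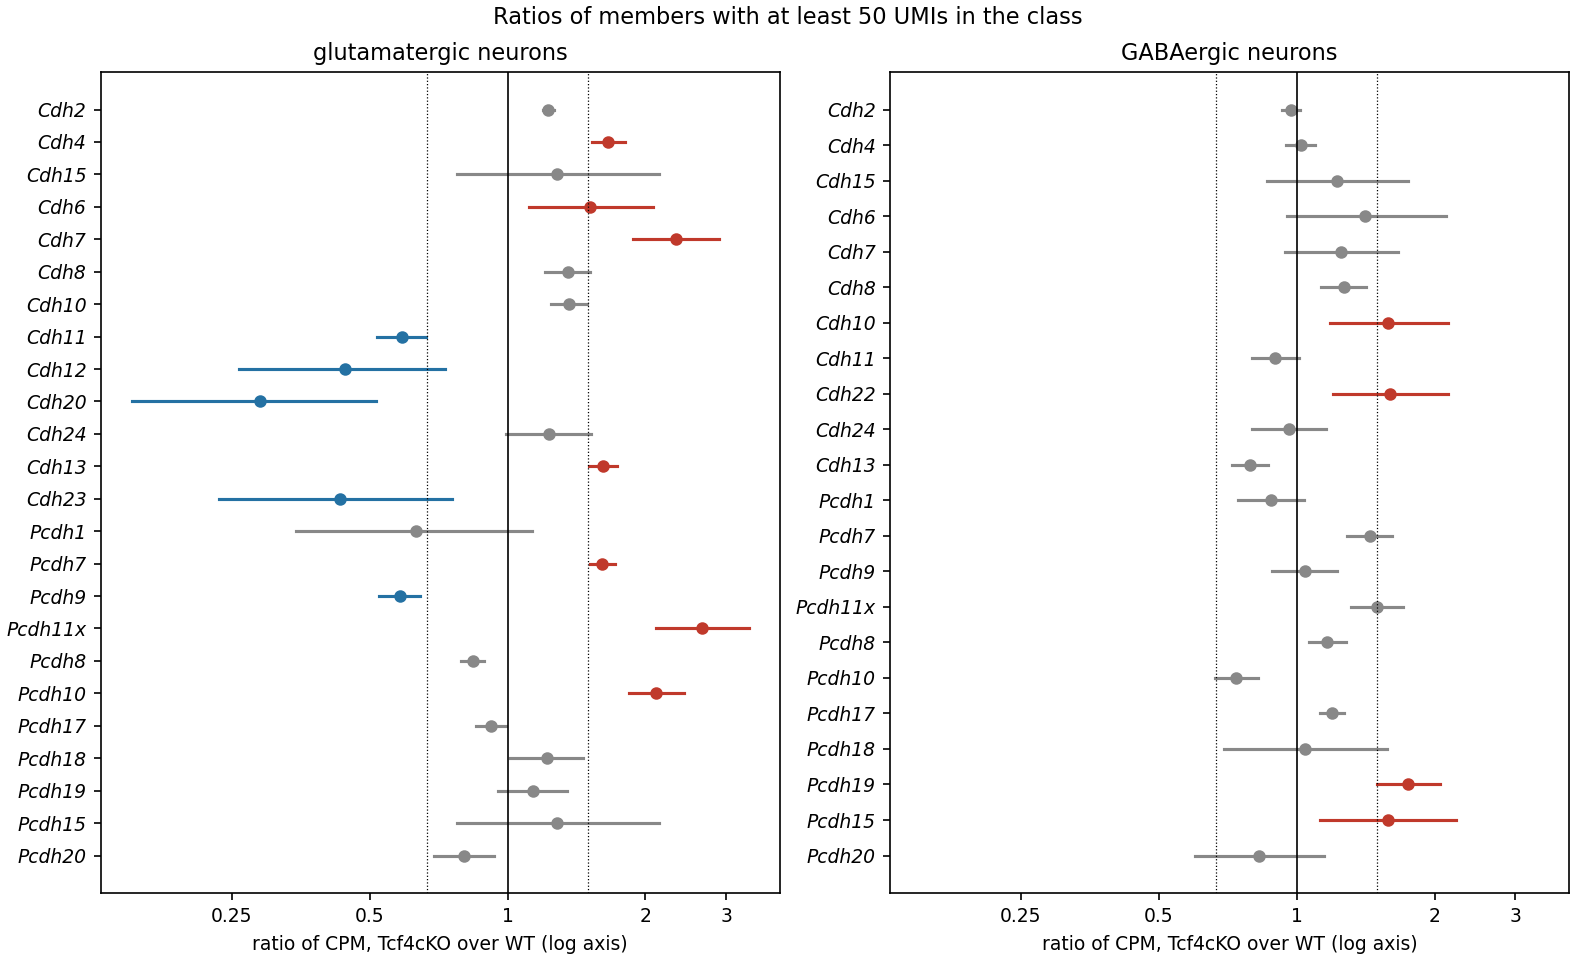
Ratio of CPM (Tcf4cKO over WT, log axis) with its 95% counting interval for each measured member in glutamatergic neurons (left, 24 members) and GABAergic neurons (right, 22 members). Red marks members called higher, blue called lower and grey not called, and dotted lines mark 1.5-fold. In glutamatergic neurons 7 members are red and 5 blue, in GABAergic neurons 4 are red and none is blue.

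Within single glutamatergic clusters several members differed otherwise than in the class. In cluster 14 (Crym and Mef2c), 9 of 16 measured members were called, 6 higher and 3 lower, against 8.61% of all genes. Pcdh10 had 2 UMIs in the WT cells of this cluster and 161 in the Tcf4cKO cells, 1.24 and 25.1 CPM, a ratio of 20.3 (5.53 to 169). Pcdh11x likewise had 2 and 96 UMIs, a ratio of 12.1 (3.26 to 101). Pcdh7 stood at 18.5 and 49.3 CPM (2.66, 1.83 to 4.01) and Pcdh20 at 5.56 and 17.1 CPM (3.08, 1.56 to 6.91). Cdh4 (5 and 67 UMIs) and Cdh10 (6 and 85 UMIs) were also called higher. The lower members here were Pcdh9 at 108 and 45.9 CPM (0.425, 0.351 to 0.515), Cdh11 at 93.3 and 44.7 CPM (0.479, 0.392 to 0.587) and Pcdh19 at 43.9 and 28.0 CPM (0.639, 0.483 to 0.853). Cdh13, higher in the class, was 277 and 235 CPM in this cluster and not called. Whether the 95 WT and 523 Tcf4cKO cells of this cluster are of the same make-up was not tested.

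In cluster 1 (Unc5d, Rnd2 and Neurod1), 2 of 17 measured members were called, both higher, against 7.15% of all genes. Cdh8 stood at 46.4 CPM (40.4 to 53.0) and 91.3 CPM (83.3 to 99.7), a ratio of 1.97 (1.67 to 2.32), and Pcdh11x at 3.63 and 7.68 CPM (2.11, 1.18 to 3.97). In cluster 15, led by Ebf1 and Lhx9 with Zic1 at 1035 CPM, 3 of 14 were called, all higher, against 6.18% of all genes. These were Pcdh11x at 19.8 and 37.6 CPM (1.90), Cdh10 at 52.3 and 88.7 CPM (1.70) and Pcdh10 at 24.2 and 40.3 CPM (1.66). Pcdh11x was the member called higher in each of these 3 shared clusters. Pcdh9 and Cdh11, by contrast, were called lower in cluster 14 alone among them.

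**Figure D3:**
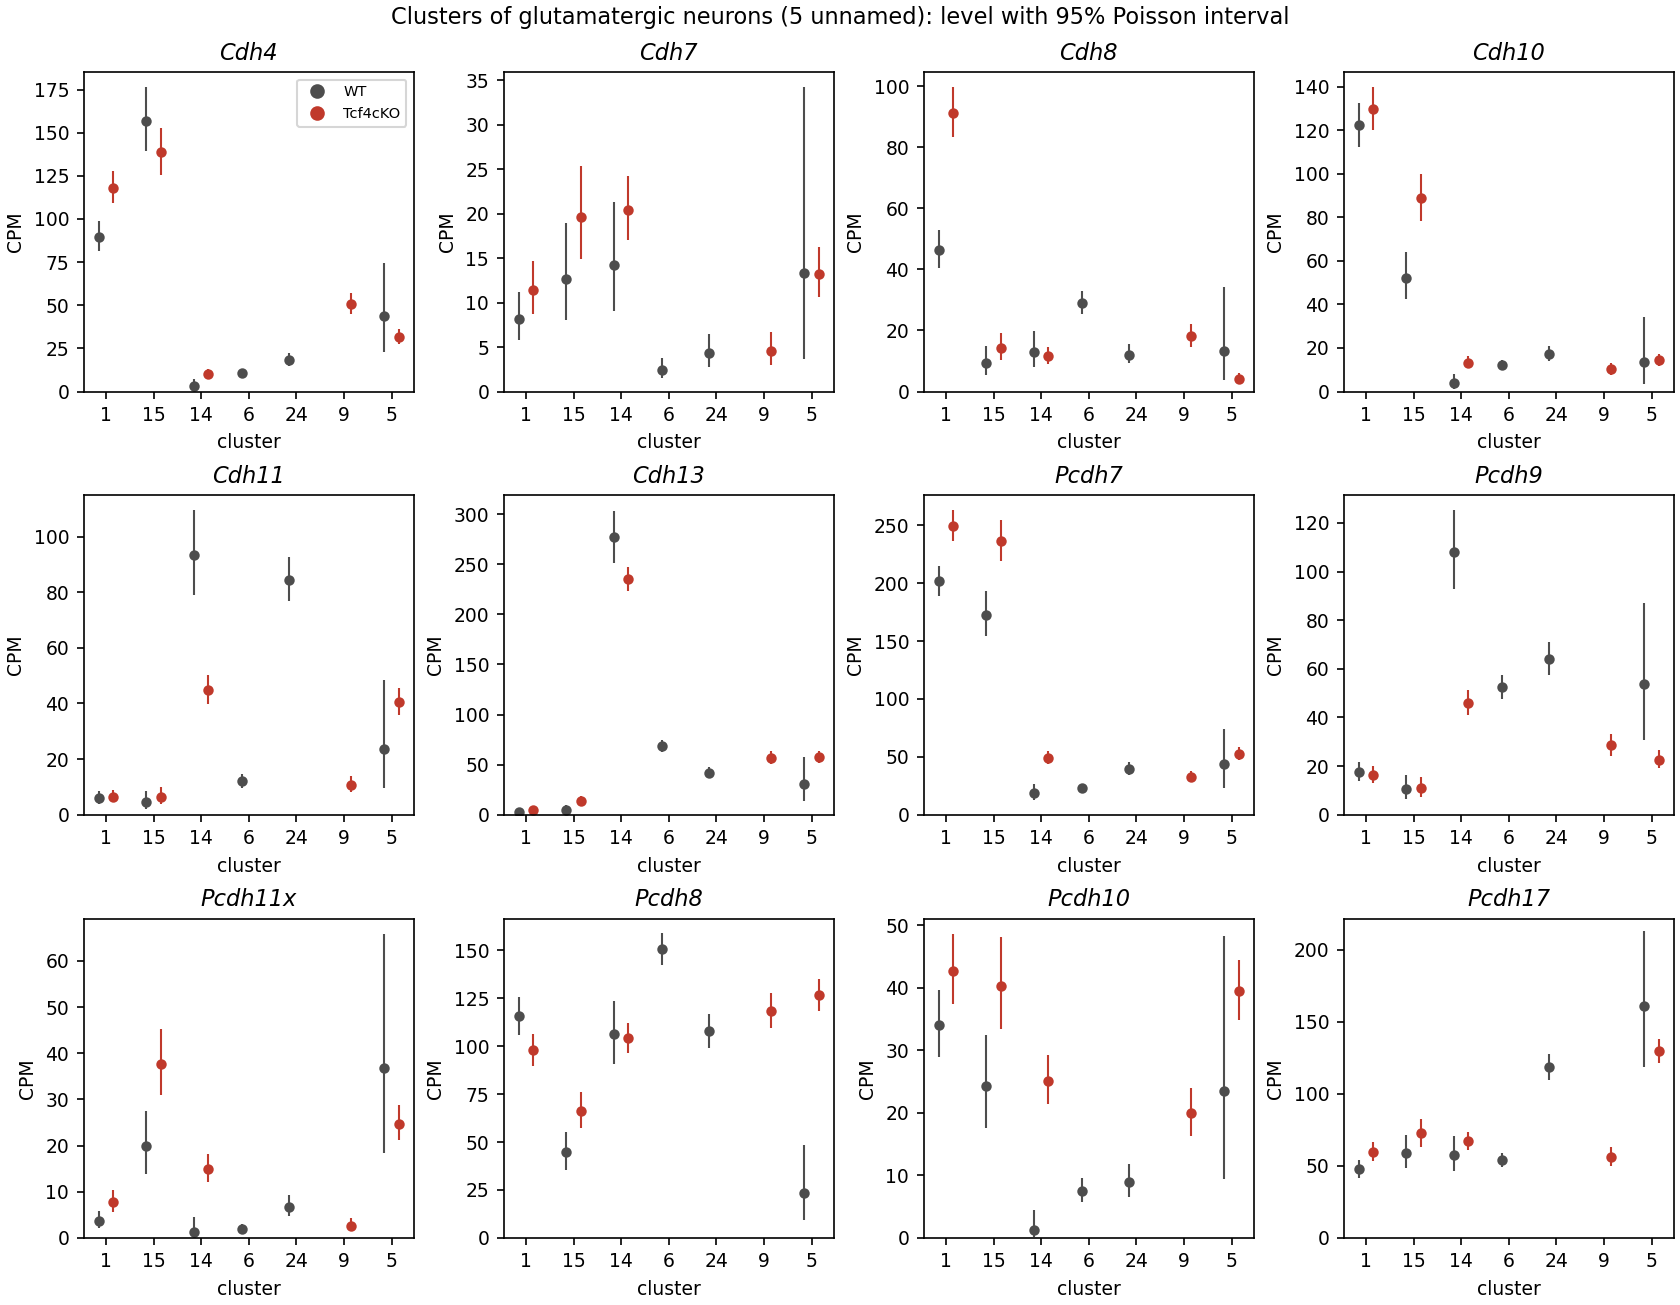
Level in CPM of 12 members in each glutamatergic cluster and in unnamed cluster 5, nearest to that class, for WT (grey) and Tcf4cKO (red), with 95% Poisson intervals, shown where a library had at least 20 cells in the cluster. Cdh10 and Pcdh7 are high in clusters 1 and 15, Cdh13 peaks in cluster 14 in both libraries (277 and 235 CPM), and Pcdh10 and Pcdh11x are both at 1.24 CPM in the WT cells of cluster 14.

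In GABAergic neurons, cells that arise mainly outside the Emx1 domain, 4 of 22 measured members were called, all higher, where 3.84% of all genes were called (2.75% higher and 1.09% lower). Pcdh19 stood at 15.4 CPM (13.5 to 17.5) and 26.9 CPM (24.5 to 29.5), a ratio of 1.75 (1.49 to 2.05). Cdh22 (79 and 136 UMIs, ratio 1.60), Cdh10 (75 and 128 UMIs, 1.58) and Pcdh15 (57 and 97 UMIs, 1.58) rested on few transcripts. The median log2 ratio was 0.16 over the members and 0.01 over all genes. The levels of Pcdh19 and Cdh10 in this class were below those in free RNA in both libraries. The 4 calls became 1 with a mitochondrial limit of 5% or with shared clusters weighted equally, and 2 with doublets kept. The share of all genes called under those settings is not given here.

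The clusters of this class differed from each other. In cluster 8 (Lhx8 and Lhx6), 6 of 15 measured members were called against 5.90% of all genes: Pcdh19 at 13 and 35.8 CPM (2.75, 1.73 to 4.52), Pcdh7 at 13 and 26.8 CPM (2.05) and Pcdh17 at 76.5 and 141 CPM (1.85, 1.52 to 2.26) were higher. Pcdh10 at 48.2 and 24 CPM (0.498, 0.357 to 0.692), Cdh11 at 22.1 and 12.5 CPM (0.566) and Cdh8 at 95.8 and 57.7 CPM (0.602, 0.483 to 0.751) were lower. Cluster 8 had 231 WT and 450 Tcf4cKO cells. Cluster 0, led by Trpc4 and Isl1 with Zic1 at 1305 CPM, had 4 of 20 called, all higher, against 2.72%: Pcdh15, Pcdh19, Cdh22 and Pcdh11x at ratios of 2.38, 1.68, 1.63 and 1.55. Cluster 19, led by Aldh1a3 and Zfp503, had 3 of 12 called against 3.76%, with Pcdh7 (1.81) and Pcdh17 (1.68) higher and Pcdh10 lower at 44.4 and 13.6 CPM (0.306, 0.180 to 0.495).

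Pcdh10 was thus called in opposite directions across the tissue. Over the 23 clusters in which it was measured, it was called lower in 7 and higher in 2, where 2.57% of all pairs of a gene and a cluster were called lower and 2.14% higher. The 2 higher were glutamatergic clusters 14 and 15. The 7 lower were GABAergic clusters 7, 8 and 19, unnamed cluster 23 beside them, astroglial cluster 10, unnamed cluster 13 beside it (Wnt8b and Neurog2) and cycling cluster 18. Pcdh11x went the other way in number, called higher in 7 of 21 clusters and lower in 1. Its 1 lower call was in Cajal-Retzius-like cluster 26, at 77.1 and 43.8 CPM (0.568, 0.404 to 0.789). Cluster 30, which shares that class name but has other leading genes, held 41.7 and 155 CPM of Pcdh11x (3.73, 2.59 to 5.45). Pcdh7 was called higher in 5 of 21 clusters and Pcdh8 in 4 of 23, and neither was called lower in any of these. In all the clusters where Pcdh8 was called, its levels were below free RNA in both libraries (49.4 and 57.5 CPM). The same held for Pcdh7 in clusters 8 and 19 (free RNA 45.3 and 40.9 CPM). It also held for Pcdh10 in clusters 7, 14 and 23 and for Pcdh11x in clusters 1 and 14.

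**Figure D4:**
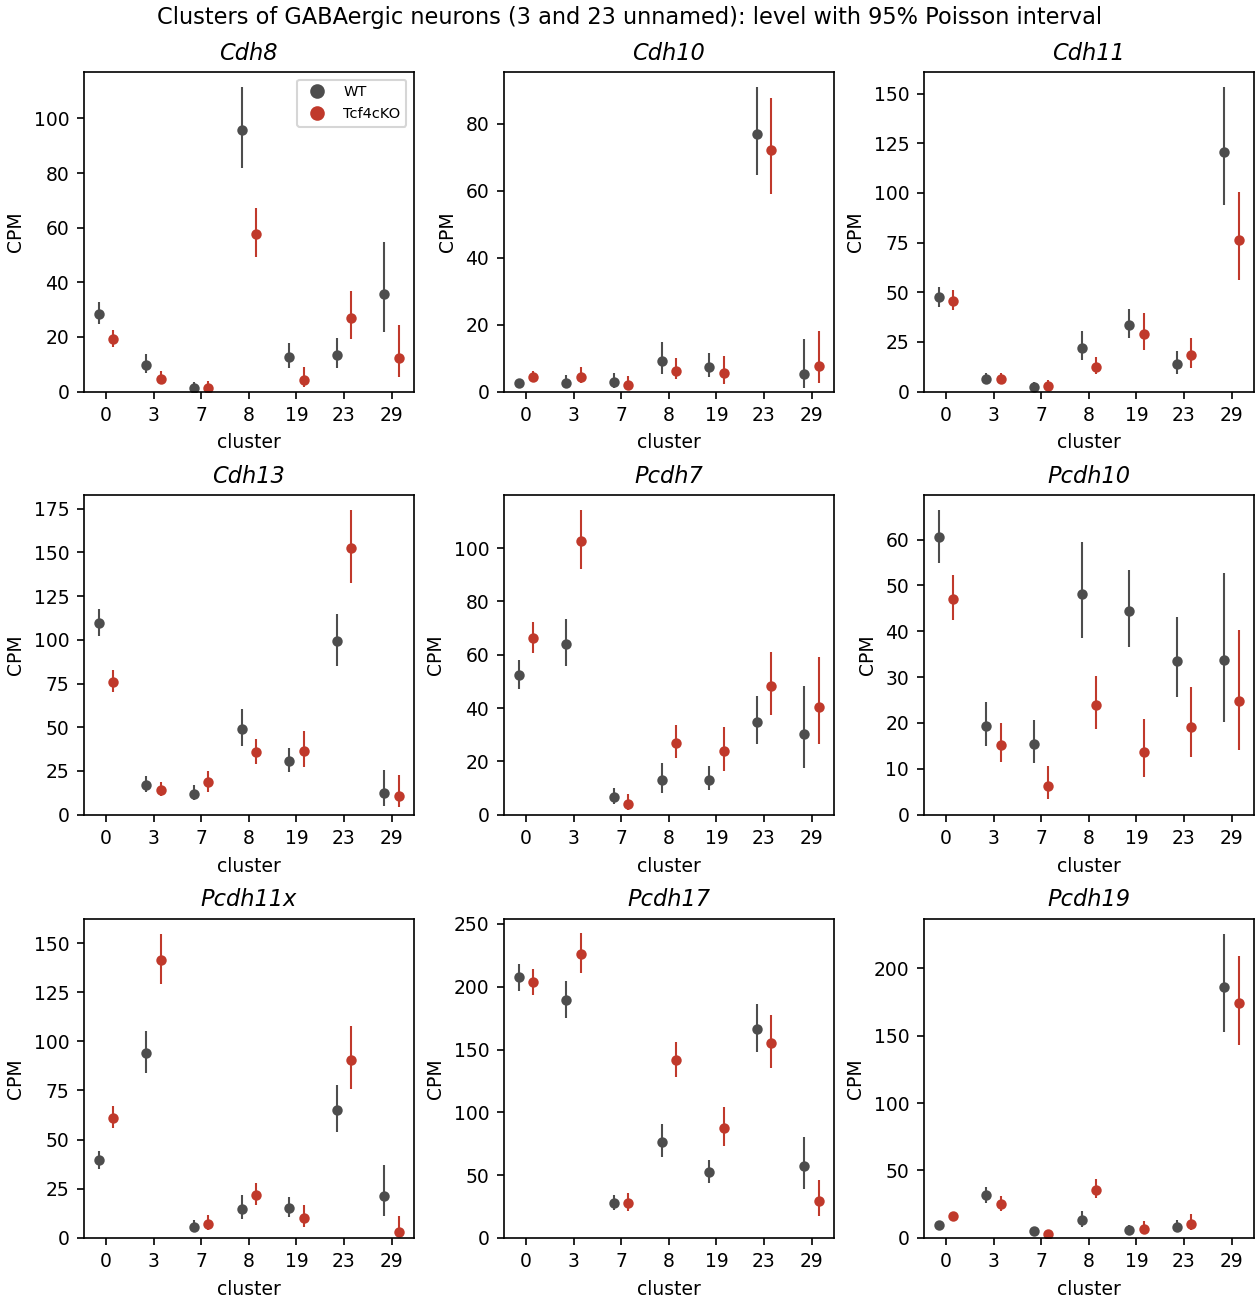
Level in CPM of 9 members in the GABAergic clusters with at least 50 cells in both libraries and in unnamed clusters 3 and 23, nearest to that class, for WT (grey) and Tcf4cKO (red), with 95% Poisson intervals. Pcdh10 is lower in the Tcf4cKO library in clusters 7, 8, 19 and 23, and Pcdh19 is highest in cluster 29 in both libraries (187 and 174 CPM).

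Astroglia had 1 call among 21 measured members, where 6.41% of all genes were called (1.83% higher and 4.58% lower). Cdh19 was lower, with 66 and 26 UMIs, 4.98 and 2.50 CPM, a ratio of 0.502 (0.306 to 0.801). In cluster 21, where the gene sits, its levels were 19.5 and 19.2 CPM, and that cluster held 297 WT and 118 Tcf4cKO astroglia. Within that cluster the ratio was 0.986 (0.562 to 1.66). The median log2 ratio of members in astroglia was -0.03, against -0.02 over all genes.

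Single astroglial clusters showed more. In cluster 10 (Hopx and Tnc, 271 and 402 cells), 3 of 13 measured members were called against 4.16% of all genes, with Pcdh10 lower at 91.3 CPM (81.2 to 102) and 58.6 CPM (51.5 to 66.4), and Cdh6 (2.18) and Pcdh18 (1.72) higher. In unnamed cluster 13 beside it, Pcdh10 at 52.5 and 29.9 CPM (0.569) and Pcdh9 at 28.2 and 17.1 CPM (0.608) were the 2 called of 13, both lower, against 4.24%. In cluster 21, 4 of 13 were called, all higher, against 6.83%: Pcdh8 (2.22), Cdh4 (2.08), Pcdh7 (1.86) and Cdh6 (1.53). In cluster 16, Pcdh8 (1.72), Cdh13 (1.68) and Pcdh17 (1.56) were higher and Pcdh9 lower (0.593), 4 of 13 against 4.55%. Cluster 2 had no call among 14, against 3.19%. For Pcdh10, the class value thus joined a cluster with a called difference and one at the same level in both libraries.

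**Figure D5:**
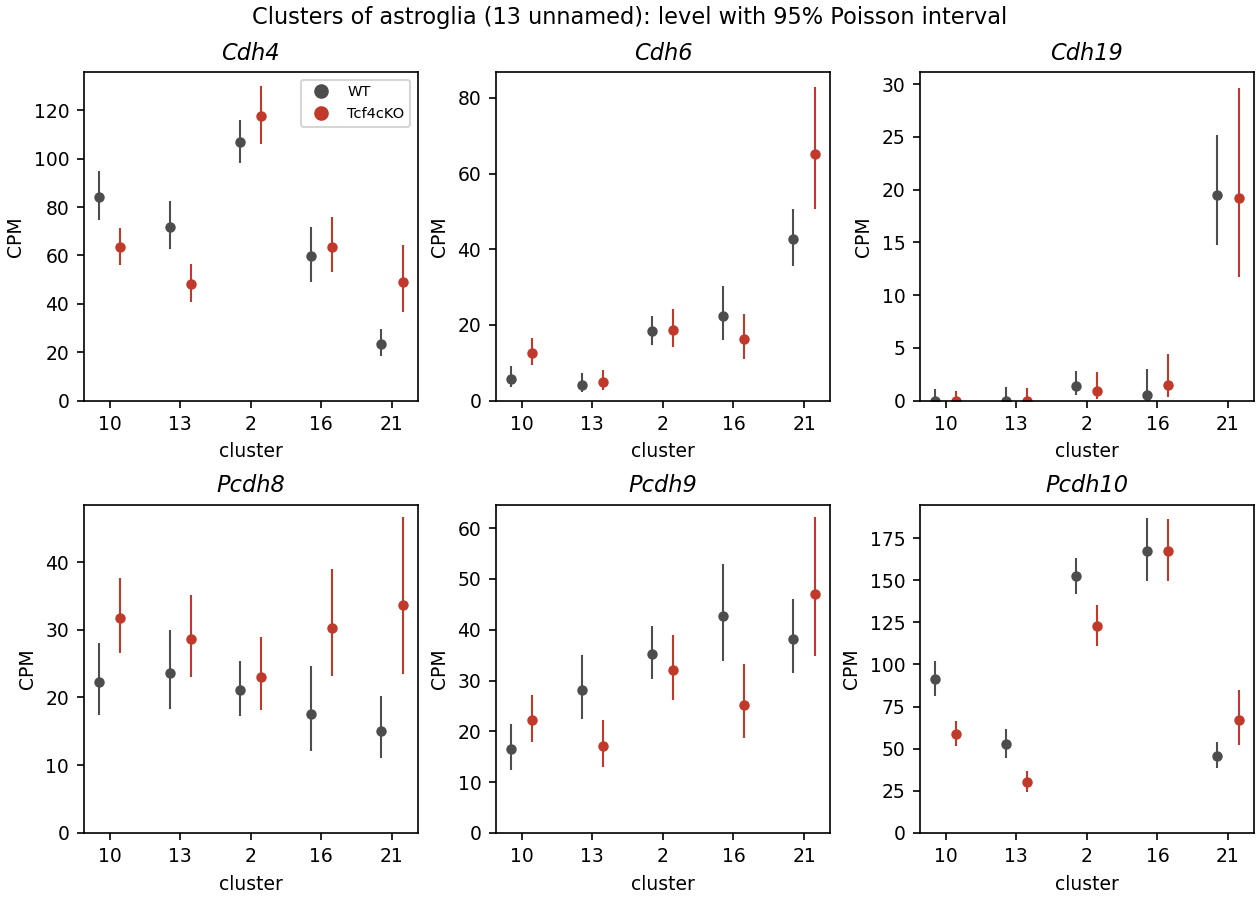
Level in CPM of 6 members in the astroglial clusters and in unnamed cluster 13, nearest to that class, for WT (grey) and Tcf4cKO (red), with 95% Poisson intervals. Cdh19 is highest in cluster 21, at 19.5 and 19.2 CPM, and Pcdh10 is lower in Tcf4cKO in clusters 10 and 13 but at 167 CPM in both libraries in cluster 16.

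Progenitors had few calls. In cycling progenitors, 1 of 22 measured members was called, where 3.79% of all genes were (1.16% higher and 2.63% lower): Cdh8 stood at 2.15 and 3.71 CPM (34 and 57 UMIs), a ratio of 1.72 (1.11 to 2.72), below its level in free RNA in both libraries. In intermediate progenitors, 2 of 15 were called, both higher, where 4.46% of all genes were (1.71% higher and 2.76% lower). These were Pcdh11x at 6.26 and 10.6 CPM (1.69, 1.13 to 2.57), again below free RNA, and Pcdh20 at 3.05 and 5.60 CPM (1.84, 1.03 to 3.38). In Cajal-Retzius-like cells, 1 of 14 was called, where 3.98% of all genes were (1.41% higher and 2.57% lower): Cdh6 at 8.23 and 17.3 CPM (2.11, 1.19 to 3.82). In microglia only Cdh2 was measured, at 67.9 and 25.0 CPM, below its level in free RNA in both libraries, and it was called lower (0.368), where 11.0% of all genes were called (3.83% higher and 7.15% lower). Summed astroglia markers in microglia went from 909 to 173 CPM beside it, and their part in that ratio was not tested.

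The remaining clusters with 50 cells in both libraries had up to 5 calls each. In cycling progenitors, cluster 11 had 2 of 16 measured members called, Cdh11 and Pcdh19, both lower, against 3.81% of all genes. Cluster 18 had Pcdh8 higher and Pcdh10 lower of 13 against 4.84%, and cluster 22 had Cdh11 higher of 15 against 4.43%. Cdh4, the type I cadherin led by Cajal-Retzius-like cells, was the 1 call in each of clusters 27 and 31, lower in both, of 4 against 4.48% and of 6 against 5.21%. Cluster 20 had no call among 10 against 2.64%. Intermediate progenitor clusters 4 and 12 had none among 12 against 5.21% and none among 8 against 4.24%.

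In the Cajal-Retzius-like clusters, cluster 30 had Pcdh11x and Cdh13 higher of 5 against 4.55%, and cluster 26 had Pcdh11x lower of 11 against 4.47%. Among GABAergic clusters, cluster 7 had Pcdh10 lower of 11 against 2.91%, and cluster 29 had Cdh11 and Pcdh17 lower of 5 against 3.86%. Unnamed cluster 3, led by Pmaip1, Syt1 and Lhx8, had 5 of 15 called against 3.76%, with Cdh6, Pcdh7, Pcdh8 and Pcdh11x higher and Cdh22 lower. Unnamed cluster 23 had Cdh8 and Cdh13 higher and Pcdh10 lower of 15 against 3.57%. Cluster 25 had Cdh8 and Pcdh11x higher of 11 against 5.94%, and cluster 17 had no call among 7 against 3.07%.

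Genes that work with these adhesion molecules were counted by the same rule. Of 16 catenins and junction partners, 14 were measured in glutamatergic neurons and 1 was called, where 8.77% of all genes were: Nectin3, a nectin that joins cells beside cadherins, stood at 62.8 and 23.3 CPM, a ratio of 0.370 (0.333 to 0.412). No gene of this list was called in the other 6 classes. Beta-catenin (Ctnnb1) was at 271 and 228 CPM in glutamatergic neurons, a ratio of 0.839 (0.807 to 0.872). Of 9 WAVE complex genes, all 9 were measured in each class but microglia and none was called in any class. The median log2 ratio in glutamatergic neurons was -0.07 for the catenin list and 0.03 for the WAVE list.

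Among 9 proteases of cadherins, none was called in glutamatergic neurons, GABAergic neurons, astroglia or cycling progenitors. Adam9 was lower in intermediate progenitors (45 and 29 UMIs, 0.608), 1 of 9 measured against 4.46% of all genes. Ncstn was higher in Cajal-Retzius-like cells (31 and 48 UMIs, 2.01), 1 of 7 against 3.98%, and Psenen was higher in microglia (1.55), 1 of 4 against 11.0%. In the rest of the cadherin superfamily, 11 of 16 genes were measured in glutamatergic neurons and 2 were called, against 8.77% of all genes. Celsr1, a planar polarity cadherin, stood at 14.8 and 31.1 CPM (2.1, 1.83 to 2.4), and Clstn2, a calsyntenin of synapses, at 58.6 and 24.7 CPM (0.421, 0.379 to 0.467). Celsr3 in astroglia (24 and 37 UMIs, 1.96) and Fat1 in GABAergic neurons (73 and 133 UMIs, 1.69) were the other calls of this list, each 1 of 10 measured, against 6.41% and 3.84% of all genes.

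Clustered protocadherins, which give neurons their surface identity, were mostly called lower where called at all. Of 57 genes, 40 were measured in glutamatergic neurons with 0 higher and 4 lower (Pcdhb2, Pcdhb5, Pcdhb6 and Pcdhgb1), where 4.04% of all genes were called higher and 4.73% lower, and 18 in astroglia with 0 higher and 5 lower (Pcdhb7, Pcdhga10, Pcdhgb5, Pcdhgb7 and Pcdhgc5), where 1.83% of all genes were called higher and 4.58% lower. In astroglia Pcdhb7 stood at 7.09 and 2.40 CPM (0.339, 0.209 to 0.531). Pcdhb17 was lower in cycling progenitors (1 of 18 measured, against 2.63% of all genes called lower), and Pcdhb17 and Pcdhb20 in intermediate progenitors (2 of 16, against 2.76%). In GABAergic neurons Pcdhb4 and Pcdhgb5 were lower (2 of 36, against 1.09%) and Pcdhb9 higher (2.13, 1 of 36 against 2.75%). Their summed level was 214 and 186 CPM in glutamatergic neurons and 133 and 105 CPM in astroglia. The alpha and gamma genes share their last exons and the beta genes are near copies, so a 3′ count cannot be assigned to 1 of them with certainty.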

How the data were processed

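UMI counts were used as deposited: not normalized, 1 matrix a library, empty droplets included. The version of Cell Ranger is 7.1.0 in the file headers but 2.1.1 in the submitters' processing notes, which give the build as mm10. Annotation release and intron setting are not given in the sources used here. CPM, ratios, log2 values and percents were computed here. Cells were barcodes above percentile 99 of the 5000 largest totals divided by 10 (3348 UMIs in WT, 3341 in Tcf4cKO), of which those under 500 genes or over 10% mitochondrial UMIs were dropped. Scrublet doublets were removed (327 in WT, 3.65%, and 544 in Tcf4cKO, 5.10%). Clustering used scanpy 1.11.5, 2000 variable genes without members, 30 components, 15 neighbours and Leiden resolution 1. A class name needed 3 markers, each in 20% of cells and 1.5-fold over the rest, a score 1.5 times the next and no other class ahead among the 10 leading genes. Levels have Poisson intervals, and ratios have exact conditional binomial intervals. Cells were not treated as replicates, so no p-value was computed. In these calls a fold of 1.5 either way and an interval without 1 were needed. The ratio rule was tested on simulated Poisson counts, which hold no spread between embryos, cells or clusters. That test therefore tells nothing of such spread in the calls. Every member with at least 50 UMIs is named, and genes of the other lists are named when called. Members, lists and rules were chosen with earlier results of these data known. Gene positions are from GENCODE vM21 and upstream sequences from RefSeq.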

Additional observations from a re-analysis of the deposited data

Results flagged for a closer look

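For 8 members, both directions were seen. Each was called higher in some cluster and lower in another, each cluster with at least 50 cells in both libraries. Over all genes, 4.71% of pairs of a gene and a cluster were called either way. How many of all genes were called in both directions was not counted, so the 8 are not shown to be a trait of the members. The ratios given are Tcf4cKO over WT for 1 cluster in each direction, the one whose interval bound nearest 1 lay farthest from 1, so a called ratio from fewer UMIs can be more extreme. The difference between the 2 clusters was not tested for any of them. Cdh4 had 2.08 in astroglial cluster 21 and 0.555 in cycling cluster 31, and was also called at 3.38 in glutamatergic cluster 14. Cdh8 had 1.97 in glutamatergic cluster 1 and 0.602 in GABAergic cluster 8, and was also called at 2.04 in unnamed cluster 23 and 2.08 in unnamed cluster 25. Cdh11 had 1.74 in cycling cluster 22 and 0.479 in glutamatergic cluster 14, and was also called at 0.441 in cycling cluster 11. Cdh22 had 1.63 in GABAergic cluster 0 and 0.471 in unnamed cluster 3. Pcdh10 had 20.3 in glutamatergic cluster 14, from 2 WT UMIs, and 0.306 in GABAergic cluster 19. Pcdh11x had 12.1 in cluster 14, also from 2 WT UMIs, and 0.568 in Cajal-Retzius-like cluster 26. Pcdh17 had 1.85 in GABAergic cluster 8 and 0.519 in GABAergic cluster 29. Pcdh19 had 2.75 in GABAergic cluster 8 and 0.585 in cycling cluster 11.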

How the results depend on the processing

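No paired analysis was possible because each genotype was 1 library. With 1 library a group no replicate could be left out. The 14 alternatives per class changed cell filters, clustering, scaling, thinning, the pseudocount, free RNA and pooling; pooling only clusters with 50 cells in both libraries was chosen after seeing the data. The cause of a changed value was not tested.

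The 12 called members of glutamatergic neurons became 7 with members kept among the variable genes, 6 with a 5% mitochondrial limit, 6 with shared clusters weighted equally and 3 with pooled 50-cell clusters. The 1 of astroglia became 0 at resolution 0.5, 3 with unnamed cells added, doublets kept or thinning to 3000 UMIs, and 2 with median-ratio scaling or free RNA subtracted. The 2 of intermediate progenitors became 4 with unnamed cells added and 0 with thinning. The 1 of cycling progenitors became 0 at resolution 0.5 or 2, with members kept, a doubled UMI minimum or thinning, and 2 with unnamed cells added. The 4 of GABAergic neurons became 1 with the 5% limit, 2 with doublets kept and 1 with equal weights. These counts are of members only, without the share of all genes called under the same alternative. They do not tell whether calls over all genes changed likewise.

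Signs of log2 ratios turned as follows. In glutamatergic neurons, members kept gave Cdh11 0.30 and Cdh6 -0.026, the 5% limit gave Cdh20 0.013, equal weights gave Cdh13 -0.16, Cdh20 0.048 and Cdh6 -0.011, and pooled 50-cell clusters gave Cdh11 0.0032, Cdh4 -0.20, Cdh6 -0.19 and Clstn2 0.30. In astroglia, resolution 0.5 gave Cdh19 0.054 and Pcdhgb7 0.038, thinning gave Pcdhgb5 0.020 and equal weights gave Cdh19 0.0097. In GABAergic neurons, a doubled UMI minimum gave Cdh22 -0.087 and doublets kept gave Cdh10 -0.058. Cdh7, Pcdh9, Pcdh10 and Pcdh11x in glutamatergic neurons kept their sign in 14 of 14 alternatives and their call in 13. Pcdh7 kept its sign in 14 but its call in 7, down to 0.01.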
